A study of Homo sapiens with 8 samples.

Results

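The genes described here encode acid hydrolases and membrane proteins of the lysosome: 37 genes of the 58870 gene rows in the deposited table, matched by symbol to a list that was drawn up with earlier results of these data known. All 37 symbols were found once each, and all 37 passed the filter on low counts, which kept 13860 genes. The libraries are RNA-seq of Panc 10.05, a human cell line established from a pancreatic ductal adenocarcinoma. The labels give 4 control libraries and 4 libraries of cells that overexpress ELAPOR1 from a transgene, called ELAPOR1 libraries below. ELAPOR1 is a transmembrane protein of the endosomal and lysosomal system, and the title of the series concerns tumour subtype and metabolism. The labels used here do not say what the control cells carried, which vector or promoter drove the transgene, whether the cells were 1 clone or a pool, or whether the 4 replicates were separate cultures, so p-values measure only the spread between these libraries, which may be technical.

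Lysosomes are acidic organelles in which proteins, glycans, sphingolipids and cholesterol esters are broken down. Their soluble hydrolases are made in the endoplasmic reticulum, tagged with mannose 6-phosphate in the Golgi and carried onward by mannose-6-phosphate receptors, while heavily glycosylated membrane proteins form the limiting membrane. Many of their genes carry the CLEAR element, a palindrome around the core CACGTG that TFEB and its relatives bind, near the start site. Pancreatic cancer cells are known for a strong reliance on lysosomal breakdown for nutrients.

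Library totals were 16558600 to 18128757 counts in control and 13765509 to 17258166 in ELAPOR1 libraries. ELAPOR1 itself (listed as KIAA1324) had 1, 1, 4 and 4 counts in control and 7006, 6422, 5910 and 7368 counts in ELAPOR1 libraries, so each library matched its label (log2 fold change 11.43, edgeR adjusted p = 3.5e-43). The 5 epithelial markers (KRT8, KRT18, KRT19, EPCAM and CDH1) summed to 10890 to 12040 CPM (counts scaled to 1000000 per library after TMM normalization) in control and 9787 to 10110 CPM in ELAPOR1 libraries, with no overlap. Of these, KRT18 (log2 fold change -0.36) and KRT8 (-0.16) were called lower, KRT19 (0.25) and CDH1 (0.11) were called higher, and EPCAM was not called, all by edgeR. The part of that shift in the results below was not tested. Of 15 markers of leukocytes, macrophages, endothelium and fibroblasts, the macrophage list summed highest, at 6.67 to 9.05 CPM in control and 8.35 to 9.29 CPM in ELAPOR1 libraries, nearly all of it CSF1R. The 3 endothelial markers summed to 1.61 to 1.95 CPM in control and 0.576 to 0.865 CPM in ELAPOR1 libraries, and the T cell marker CD3E had 0 counts in all libraries. In such bulk RNA, fewer expressing cells and less RNA per cell cannot be told apart.

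Most of the lysosomal genes were lower in ELAPOR1 libraries, by small amounts. Of the 37 members, 24 differed at an edgeR adjusted p under 0.05, 21 lower and 3 higher. Over all tested genes 44.7% were called, 22.1% lower and 22.6% higher, against 56.8% of the members called lower and 8.11% called higher. Since the list was drawn up with results known, these shares describe it and are not independent evidence of a direction. The median log2 fold change was -0.19 over the members and 0.00087 over all tested genes. CPM did not overlap between the groups for 21 members, 19 of them lower and 2 higher, where over all tested genes the shares were 39.2% in either direction, 19.3% lower and 20.0% higher. The falls were largest in named genes of 3 kinds: the tetraspanin CD63, the glycosidases IDUA, NEU1, GUSB and HEXA, and the rare protease transcript CTSF. Apart from CTSF, the changes of the genes called lower ran from -28.2% (CD63) to -7.62% (CTSZ).

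**Figure D1:**
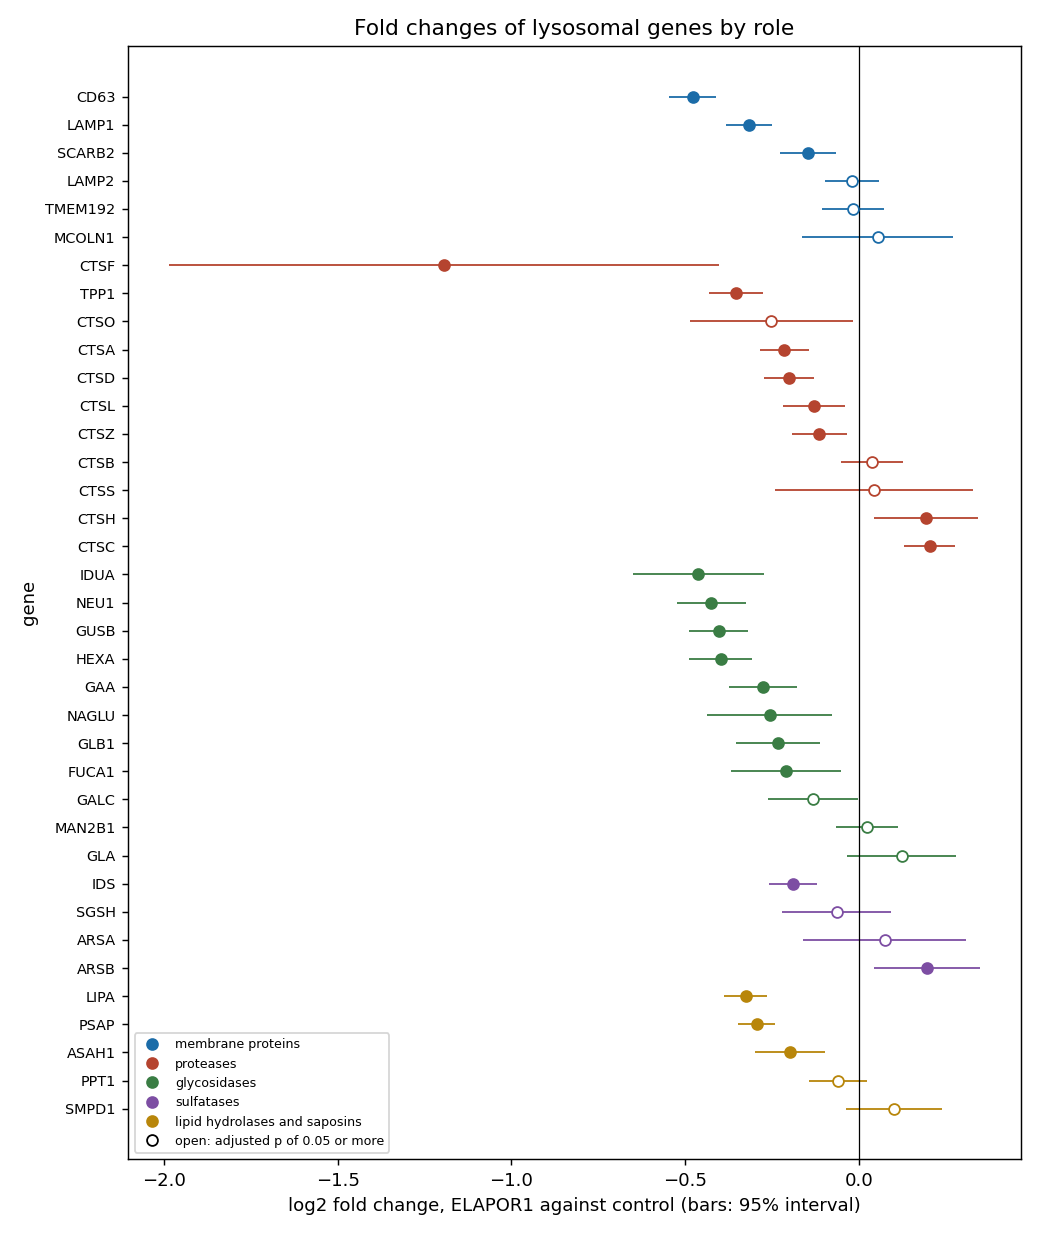
Log2 fold change of each of the 37 genes in ELAPOR1 against control libraries (x axis), with bars for the 95% interval and genes grouped by role (y axis, colours). Filled points passed an edgeR adjusted p of 0.05; 21 filled points lie left of 0 and 3 (CTSC, CTSH and ARSB) lie right of it.

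The members together took 0.360 ± 0.00416% of all counts (SD, n = 4) in control and 0.311 ± 0.00254% (SD, n = 4) in ELAPOR1 libraries. The 4 control libraries lay at 0.355, 0.357, 0.363 and 0.364%, and the 4 ELAPOR1 libraries at 0.313, 0.308, 0.313 and 0.309%. The groups did not overlap in this sum. PSAP, the precursor of the saposins, contributed more counts than any other member, and without it the shares were 0.293% and 0.256%.

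**Figure D2:**
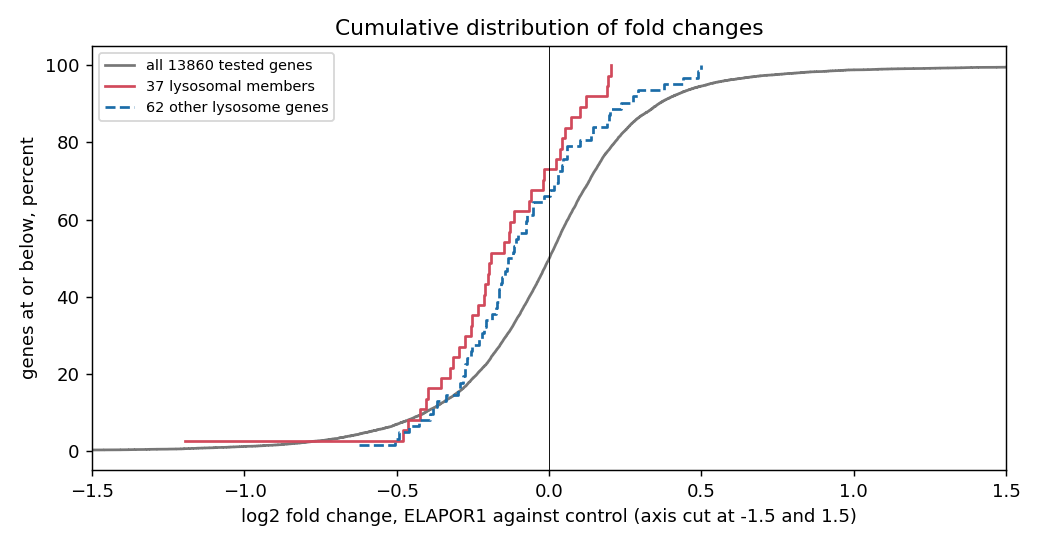
Cumulative share of genes (y axis, percent) at or below each log2 fold change (x axis) for all 13860 tested genes, the 37 members and 62 other lysosome genes. The line of the members lies left of that of all genes around 0: 27 of 37 members had a value below 0, against 49.9% of all tested genes.

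The promoter sequences are shown because the element near the start is what many of these genes are known to share. RefSeq promoter windows on GRCh38.p14, from 250 bases before to 50 after an annotated start, were matched by symbol for 27 members; CTSO, ARSA, PSAP, NAGLU, CTSS, SGSH, CTSB, LAMP2, HEXA and ASAH1 had no entry. The core CACGTG was searched together with TCACGTGA, which contains it, and with the CLEAR palindrome, which is TCACGTGA with a G before and a C after it; each form is its own reverse complement and so read on both strands at once. The core stood in a window of 9 of the 27 members (33.3%) and of 8.78% of the 27305 genes with an entry. TCACGTGA stood in 4 members, LAMP1, MCOLN1, CTSA and GAA (14.8%), and in 1.18% of all genes. The CLEAR palindrome stood in GAA and MCOLN1 (7.41%) and in 0.421% of all genes. All 27 members were tested genes, whereas the 27305 genes include many that were not tested. Among tested genes with an entry, 1252 held the core and 8655 did not. For TCACGTGA these numbers were 222 and 9685, and for the palindrome 89 and 9818. The 27 members had 41 windows, of which 9 held the core, against 7.26% of all 35116 windows.

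Stretches are printed in lower case, 5′ to 3′ on the strand of the gene, with CACGTG in capitals. Those of ARSB and CTSF, which also held the core, are not printed. LAMP1 (chr13:113297032-113297238, plus strand) ends at the base before the start and held 5 cores upstream, with the sixth, not printed whole, across the start. GAA (chr17:80101490-80101570, plus strand) held the CLEAR palindrome at both of its cores. MCOLN1 (chr19:7522568-7522623, plus strand) held TCACGTGA at both of its cores and the CLEAR palindrome at 1 of them. NEU1 (chr6:31862927-31862962, minus strand) had 1 core. For CTSA (chr20:45891300-45891325, plus strand), CTSD (chr11:1763959-1763984, minus strand) and CD63 (chr12:55729174-55729199, minus strand, from 1 of its 8 windows) only 26 bases are given, since these lie inside exons of longer transcripts in GENCODE release 29. CTSA held 2 cores, of which 1 is printed, and CTSD and CD63 held 1 each.
LAMP1: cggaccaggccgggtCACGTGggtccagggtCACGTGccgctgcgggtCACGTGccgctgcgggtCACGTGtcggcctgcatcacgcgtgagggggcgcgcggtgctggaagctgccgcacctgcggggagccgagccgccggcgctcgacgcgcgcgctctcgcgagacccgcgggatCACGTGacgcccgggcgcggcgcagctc
GAA: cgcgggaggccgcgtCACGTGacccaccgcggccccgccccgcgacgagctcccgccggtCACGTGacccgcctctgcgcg
MCOLN1: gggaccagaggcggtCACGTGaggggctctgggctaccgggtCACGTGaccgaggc
NEU1: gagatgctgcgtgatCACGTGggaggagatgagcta
CTSA: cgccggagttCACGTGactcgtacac
CTSD: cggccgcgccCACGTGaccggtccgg
CD63: gggtaggggcCACGTGgccctggccg

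Of the 9 members with a core, 7 were called lower (LAMP1, CD63, CTSA, CTSD, CTSF, GAA and NEU1), ARSB was called higher and MCOLN1 was not called. Their median log2 fold change was -0.28. Of the 18 members with an entry and no core, 10 were called lower and 2 higher, with a median of -0.13. Across all tested genes with an entry, 23.1% of the 1252 with a core and 22.5% of the 8655 without were called lower, 27.3% and 24.7% were called higher, and their medians were 0.019 and 0.011. Sequence matches describe these windows alone and do not show that a factor was bound.

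The members spanned a wide range of levels, and places in their order shifted by 3 at most. Per kb of the principal transcript in GENCODE release 29, CD63 was highest in control at 390 ± 24.4 CPM per kb (SD, n = 4), then PSAP at 234 ± 2.70, the aspartic protease CTSD at 116 ± 7.32, the acid lipase LIPA at 85.5 ± 2.08 and the carboxypeptidase CTSZ at 82.7 ± 5.36. CTSS and CTSF were lowest, at 1.30 ± 0.205 and 0.417 ± 0.0439 CPM per kb. CD63, PSAP and CTSD were each apart from the next gene in every control library, while LIPA and CTSZ overlapped. Of the 36 pairs of neighbours in this order, 19 overlapped between control libraries. Between the control and the ELAPOR1 order 11 of the 37 members kept their place, and no member moved by more than 3 places.

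**Figure D3:**
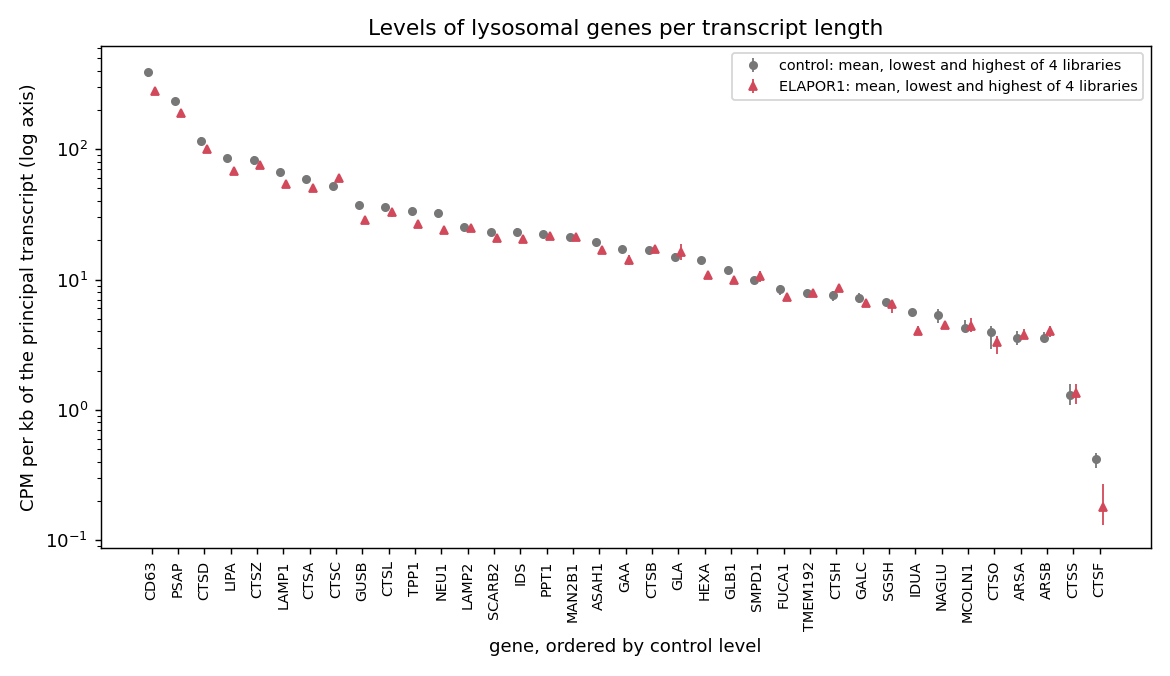
Level of each member in CPM per kb of its principal transcript (y axis, log scale), ordered by the control mean (x axis). Points are means of 4 libraries and bars run from the lowest to the highest library; CD63 is first in both groups, at 390 and 280 CPM per kb, and CTSF last at 0.417 and 0.180.

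Of the 6 membrane proteins, 3 fell (50%, against 22.1% of all tested genes) and 3 were not called. CD63, a tetraspanin of late endosomes, lysosomes and exosomes (chromosome 12, 55725323 to 55729707), was at 441, 476, 493 and 512 CPM in the control libraries and at 345, 337, 347 and 350 CPM in the ELAPOR1 libraries. Every ELAPOR1 library lay below every control library, and the spread was tighter among them. The change was -28.2%, or -0.48 in log2 (SE 0.0345), with an edgeR adjusted p of 1.8e-12. LAMP1, a major glycoprotein of the lysosomal membrane (chromosome 13, 113297241 to 113323672), was at 176, 187, 182 and 179 CPM in control and 142, 142, 146 and 152 CPM in ELAPOR1 libraries. Its groups did not overlap, and its log2 change was -0.32 (SE 0.0343; edgeR adjusted p = 2.1e-09).

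SCARB2, a membrane protein of lysosomes that also acts as a sorting receptor, averaged 111 ± 6.42 CPM in control and 100 ± 3.42 CPM with the transgene (SD over 4 libraries), with overlap. It fell by 0.15 in log2 units (edgeR adjusted p = 3.8e-03). LAMP2, the paralogue of LAMP1 that also serves chaperone-mediated autophagy, stood at 105, 99.9, 98.8 and 104 CPM in control and 99.0, 103, 95.7 and 104 CPM in ELAPOR1 libraries. These values overlap, and the log2 fold change was -0.02 with a 95% interval of -0.10 to 0.06 (edgeR adjusted p = 0.701). TMEM192, a membrane protein widely used as a handle to purify lysosomes, had a log2 fold change of -0.02 (95% interval -0.11 to 0.07). MCOLN1, the cation channel through which lysosomes release calcium, had one of 0.05 with a wider interval of -0.16 to 0.27, at only 8.91 ± 0.967 CPM in control. TMEM192 and MCOLN1 overlapped between the groups, with edgeR adjusted p-values of 0.795 and 0.732.

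Among the 11 proteases, 6 fell, 2 rose and 3 were not called. The shares were 54.5% lower and 18.2% higher, against 22.1% and 22.6% of all tested genes. TPP1, a serine protease that removes tripeptides (chromosome 11, 6612763 to 6619485), was at 125, 122, 118 and 116 CPM in control and 90.2, 93.3, 99.3 and 94.4 CPM in ELAPOR1 libraries, with no overlap. It fell by 0.35 in log2 units, with an SE of 0.0392 (edgeR adjusted p = 3.3e-09). CTSA, the carboxypeptidase that protects neuraminidase and beta-galactosidase, was at 122 to 130 CPM in control and 106 to 111 CPM in ELAPOR1 libraries. It fell by 0.22 (edgeR adjusted p = 8.3e-06), again with all ELAPOR1 libraries below all controls. CTSD, the main aspartic protease, was at 231, 237, 255 and 265 CPM in control and 217, 213, 220 and 209 CPM in ELAPOR1 libraries. Its groups were separate by a narrow margin, and it fell by 0.20 in log2 units (edgeR adjusted p = 2.9e-05).

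Of the exon bases of CTSD, 41.7% are shared with AC068580.4, a same-strand gene with 121 to 192 counts per library beside 3061 to 4345 for CTSD. With the counts of both genes added together, the log2 fold change of CTSD was -0.19. After removal of the trend of each library with GC content and transcript length it was -0.11 (edgeR adjusted p = 6.3e-04). CTSL and CTSZ, a cysteine endopeptidase and a cysteine carboxypeptidase, had smaller called changes of -8.62% and -7.62% (edgeR adjusted p = 0.0198 and 0.0199). The CTSL call was lost without control replicate 3 (edgeR adjusted p = 0.0635) or ELAPOR1 replicate 4 (0.156), and under total count scaling. CTSZ, at 113, 126, 122 and 132 CPM in control and 113, 113, 114 and 116 CPM in ELAPOR1 libraries, had overlapping groups. Its call was lost without control replicate 2 or 4 or ELAPOR1 replicate 1 or 2, under total count scaling, and with GC and length trends removed (log2 fold change -0.03, edgeR adjusted p = 0.497).

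CTSF, a cysteine protease, was rare: 17, 15, 14 and 12 counts in control and 9, 4, 5 and 5 counts in ELAPOR1 libraries. Its control libraries were all higher, and its log2 change was -1.19, with an SE of 0.403 (edgeR adjusted p = 0.0154). That call was lost without ELAPOR1 replicate 2 (log2 fold change -1.07, edgeR adjusted p = 0.0522) or replicate 4 (-1.09, 0.0526), and CTSF did not pass a filter of 10 counts in every library. The other changes ran upward. CTSC, the dipeptidyl peptidase that activates serine proteases of immune granules (chromosome 11, 88293592 to 88337787), was at 100, 98.6, 98.0 and 104 CPM in control and 113, 120, 113 and 115 CPM in ELAPOR1 libraries. The ELAPOR1 libraries were all higher, and CTSC rose by 0.20 in log2 units, with an SE of 0.0378 (edgeR adjusted p = 4.0e-05).

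CTSH, an aminopeptidase of the cathepsin family, was at 17.8, 16.3, 15.1 and 17.0 CPM in control and 18.6, 19.5, 19 and 18.6 CPM in ELAPOR1 libraries. All ELAPOR1 libraries were higher, and it rose by 0.19 in log2 units (edgeR adjusted p = 0.0411). Its call was lost in 6 of the fits that left out 1 library, those without control replicate 2 or 3 or any single ELAPOR1 replicate, where the adjusted p was 0.0575 to 0.148. It was also lost with upper-quartile scaling (adjusted p = 0.0507 in edgeR), DESeq2 (0.0825) and no filter beyond 1 count (0.0776). CTSB, a cysteine protease with both endopeptidase and carboxypeptidase activity, was at 64.6 to 65.4 CPM in control and 64.0 to 71.2 CPM in ELAPOR1 libraries (log2 fold change 0.04, 95% interval -0.05 to 0.12, edgeR adjusted p = 0.539). CTSS, known for antigen processing, averaged 5.35 ± 0.840 CPM in control and 5.53 ± 0.796 CPM with the transgene (SD over 4 libraries), with an edgeR adjusted p of 0.842. CTSO was at 8.60 CPM in control replicate 4 and at 12.2 to 13.1 CPM in the other controls. Its log2 fold change of -0.25 did not pass (edgeR adjusted p = 0.0880), and without control replicate 4 it was -0.37 (adjusted p = 4.1e-03).

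**Figure D4:**
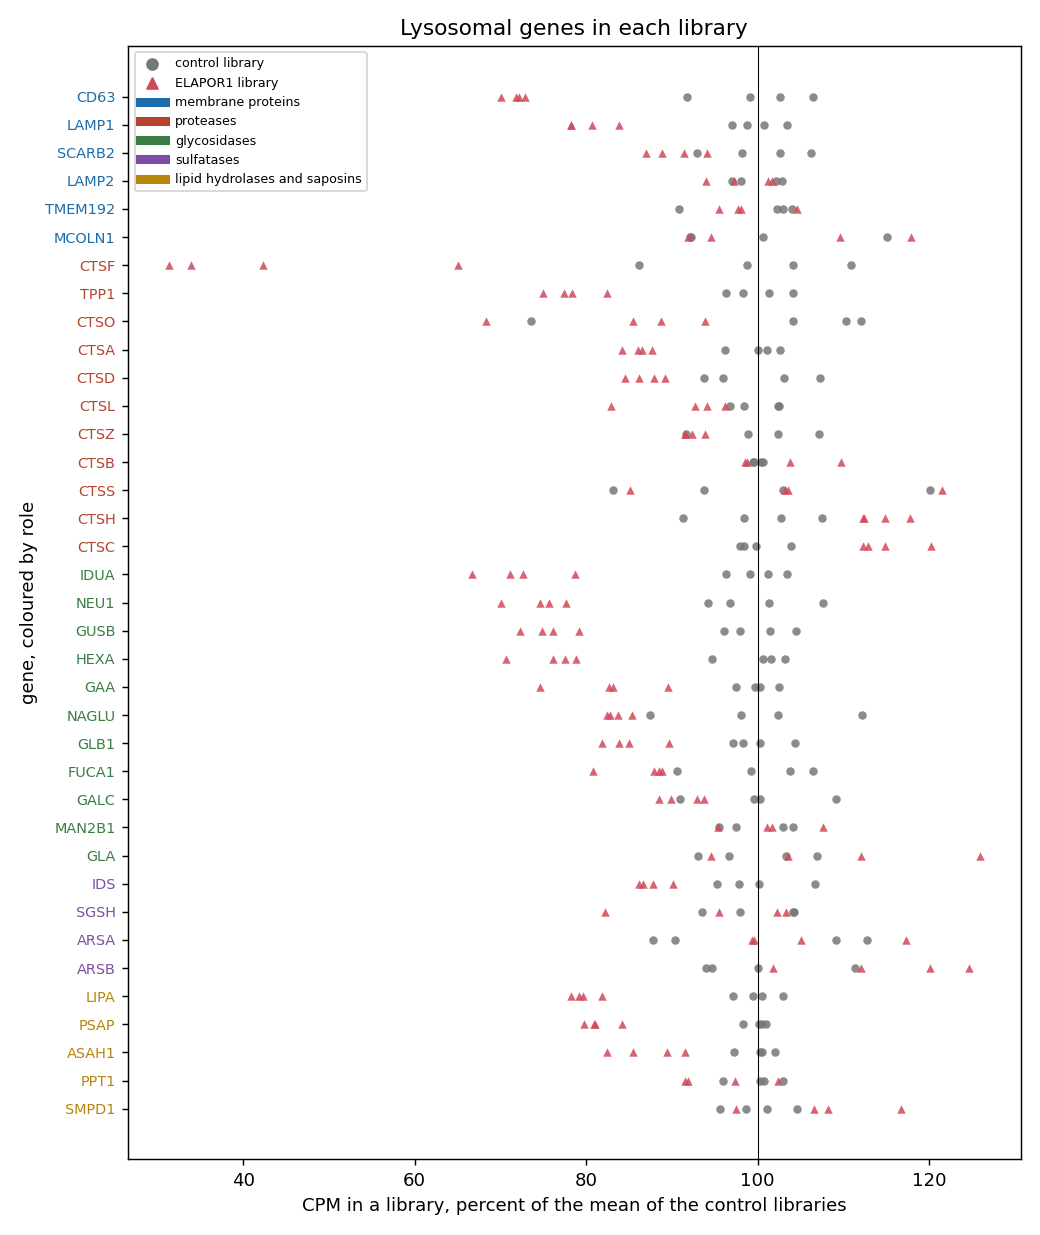
CPM of each member in each library as a percent of the mean of the 4 control libraries (x axis), with genes grouped by role (y axis). Circles are control and triangles ELAPOR1 libraries; triangles and circles are separate for 21 genes, among them CD63, LAMP1, TPP1, NEU1, GUSB, HEXA, LIPA and PSAP on the lower side and CTSC and CTSH on the higher.

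The glycosidases remove sugars one at a time from glycans and glycolipids. Of the 11, 8 were called, all lower, each with no overlap between the groups, and 3 were not called. Over all tested genes 22.1% were called lower and 19.3% were lower with no overlap, against 72.7% of the glycosidases for each. IDUA, which cuts iduronic acid from heparan and dermatan sulfate (chromosome 4, 986997 to 1004506), was at 11.6, 11.98, 12.2 and 12.5 CPM in control and 8.59, 8.78, 8.06 and 9.52 CPM in ELAPOR1 libraries. It was lower in all 4 ELAPOR1 libraries, by -0.46 in log2 (SE 0.0960; edgeR adjusted p = 1.6e-04). NEU1, the lysosomal sialidase (chromosome 6, 31857659 to 31862906), was at 63.7, 62.0, 66.7 and 70.8 CPM in control and 51.1, 49.8, 49.1 and 46.1 CPM in ELAPOR1 libraries. The lowest control exceeded the highest ELAPOR1 library, and NEU1 fell by 0.42 in log2 units (edgeR adjusted p = 1.3e-08).

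GUSB, beta-glucuronidase (chromosome 7, 65960684 to 65982314), was at 83.2, 90.4, 87.9 and 84.8 CPM in control and 62.5, 68.5, 65.9 and 64.8 CPM in ELAPOR1 libraries, a change of -24.4% (log2 fold change -0.40, edgeR adjusted p = 1.8e-09). HEXA, a hexosaminidase subunit needed to degrade GM2 ganglioside (chromosome 15, 72340919 to 72376476), was at 70.6, 75.7, 75.0 and 76.9 CPM in control and 57.8, 58.7, 52.6 and 56.8 CPM in ELAPOR1 libraries. It fell by 24.1% (log2 fold change -0.40, edgeR adjusted p = 9.2e-09). Both genes were lower in all 4 ELAPOR1 libraries than in any control. GAA, which breaks down glycogen and whose promoter holds the CLEAR palindrome at both cores, fell by 17.4% (edgeR adjusted p = 2.7e-05), from 60.9 to 64.0 CPM in control to 46.6 to 55.9 CPM in ELAPOR1 libraries.

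GLB1, the beta-galactosidase read out in senescence assays, fell by 14.9% (edgeR adjusted p = 2.2e-03). NAGLU, an N-acetylglucosaminidase of heparan sulfate breakdown, fell by 16.4% (adjusted p = 0.0219), and FUCA1, alpha-fucosidase, by 13.6% (adjusted p = 0.0323). The NAGLU call was lost without control replicate 2 (edgeR adjusted p = 0.110), without ELAPOR1 replicate 4 (0.0510) and with GC and length trends removed (0.0996). That of FUCA1 was lost without control replicate 1, 3 or 4 or ELAPOR1 replicate 4, where edgeR adjusted p ran from 0.0530 to 0.108. It was also lost under total count scaling (0.0551), DESeq2 (0.0649) and no filter beyond 1 count (0.0514).

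For 3 glycosidases no call was made. GALC, which removes galactose from galactosylceramide, had a log2 fold change of -0.13 (edgeR adjusted p = 0.105); it was called lower without control replicate 2 (adjusted p = 0.0423) and with GC and length trends removed (0.0322). GLA, the alpha-galactosidase lacking in Fabry disease, was at 18.4 to 21.2 CPM in control and 18.7 to 24.9 CPM in ELAPOR1 libraries (log2 fold change 0.12, 95% interval -0.03 to 0.28, edgeR adjusted p = 0.224). MAN2B1, an alpha-mannosidase, had a log2 fold change of 0.02 (95% interval -0.07 to 0.11, adjusted p = 0.730).

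The 4 sulfatases, which strip sulfate from glycosaminoglycans and sulfatide, split in direction. The shares, 25% lower and 25% higher, were near the 22.1% and 22.6% of all tested genes. IDS, iduronate 2-sulfatase, the enzyme that acts just before IDUA on the same chains (chromosome X, 149476990 to 149521096), was at 189, 173, 177 and 168 CPM in control and 153, 152, 155 and 159 CPM in ELAPOR1 libraries. All ELAPOR1 libraries were lower, and IDS fell by 0.19 in log2 units, with an SE of 0.0354 (edgeR adjusted p = 4.0e-05). It shares 16.5% of its exon bases with AC244197.3 on the same strand, and with both counts added the log2 fold change was again -0.19.

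ARSB, arylsulfatase B, was at 21.0, 17.9, 18.9 and 17.7 CPM in control and 19.2, 21.2, 23.5 and 22.7 CPM in ELAPOR1 libraries. It rose by 0.19 in log2 units (edgeR adjusted p = 0.0418), although control replicate 1 lay above ELAPOR1 replicate 1. That call was lost without control replicate 2, 3 or 4 or ELAPOR1 replicate 2, 3 or 4 (edgeR adjusted p from 0.0565 to 0.144). It was also lost with DESeq2 (0.0777), limma-voom (0.0561), no filter beyond 1 count (0.0531) and GC and length trends removed (0.137). ARSA, which desulfates sulfatide, and SGSH, which acts on heparan sulfate, had log2 fold changes of 0.07 and -0.07 (edgeR adjusted p = 0.656 and 0.543), with 95% intervals of -0.16 to 0.31 and -0.22 to 0.09.

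Of the 5 genes for lipid breakdown, 3 fell (60%), all with no overlap. Over all tested genes 22.1% were called lower and 19.3% were lower with no overlap. PSAP, whose product is cut into the saposins that help hydrolases reach sphingolipids (chromosome 10, 71816298 to 71851375), was at 660, 675, 673 and 678 CPM in control and 565, 544, 545 and 535 CPM in ELAPOR1 libraries. It fell by 0.30 in log2 units, with an SE of 0.0273 (edgeR adjusted p = 6.8e-11). LIPA, the lipase that frees cholesterol from its esters (chromosome 10, 89213569 to 89414557), was at 245, 236, 239 and 231 CPM in control and 195, 186, 188 and 189 CPM in ELAPOR1 libraries. Its log2 change was -0.33 (SE 0.0314; edgeR adjusted p = 1.5e-10). In both genes the gap between the groups was wider than the range within either.

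ASAH1, acid ceramidase, fell from 47.5 to 49.8 CPM in control to 40.3 to 44.7 CPM in ELAPOR1 libraries (log2 fold change -0.20, edgeR adjusted p = 1.7e-03). PPT1, which removes palmitate from proteins, had a log2 fold change of -0.06 (adjusted p = 0.258), and was called at -0.10 (adjusted p = 0.0365) with GC and length trends removed. SMPD1, acid sphingomyelinase, was at 20.7 to 22.7 CPM in control and 21.1 to 25.3 CPM in ELAPOR1 libraries (log2 fold change 0.10, edgeR adjusted p = 0.263). PPT1 shares 23.4% of its exon bases with CAP1 on the opposite strand. The use of strand in counting was not given in the sources used here. Called members also had opposite-strand overlaps: CTSA 17.7% with NEURL2, CTSD 15.8% with AC068580.3, IDUA 13.35% with SLC26A1 and HEXA 10.1% with AC009690.2. CD63 shared a smaller part with AC009779.2, as did GLB1, TPP1, LIPA and ASAH1 with other genes. The effect of these overlaps on the calls was not tested.

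Ratios of 2 genes within a library do not depend on scaling, and were taken for 8 pairs of paralogues, subunits or partners chosen after the values were seen. The count ratio of LAMP1 to LAMP2 was 1.68, 1.88, 1.85 and 1.72 in control and 1.43, 1.38, 1.53 and 1.47 in ELAPOR1 libraries. It was lower in all 4 ELAPOR1 libraries, with a log2 difference of -0.30. The two-sided exact permutation p was 0.0286, which is the minimum for 4 libraries against 4, and 0.0571 after Benjamini-Hochberg adjustment over the 8 pairs. The same p-values were found for NEU1 to CTSA (log2 difference -0.21), PSAP to GALC (-0.17) and GNPTG to GNPTAB (-0.64). No ratio passed 0.05 after that adjustment. Since the pairs were chosen with the values known, these p-values describe separation of the groups and are not independent evidence of a difference.

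GLB1 to CTSA, partners in one complex, gave a log2 difference of -0.02 (exact permutation p = 0.771). CTSL to CTSB gave -0.17 (exact p = 0.0571). These p-values do not show that the members of such pairs moved alike.

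**Figure D5:**
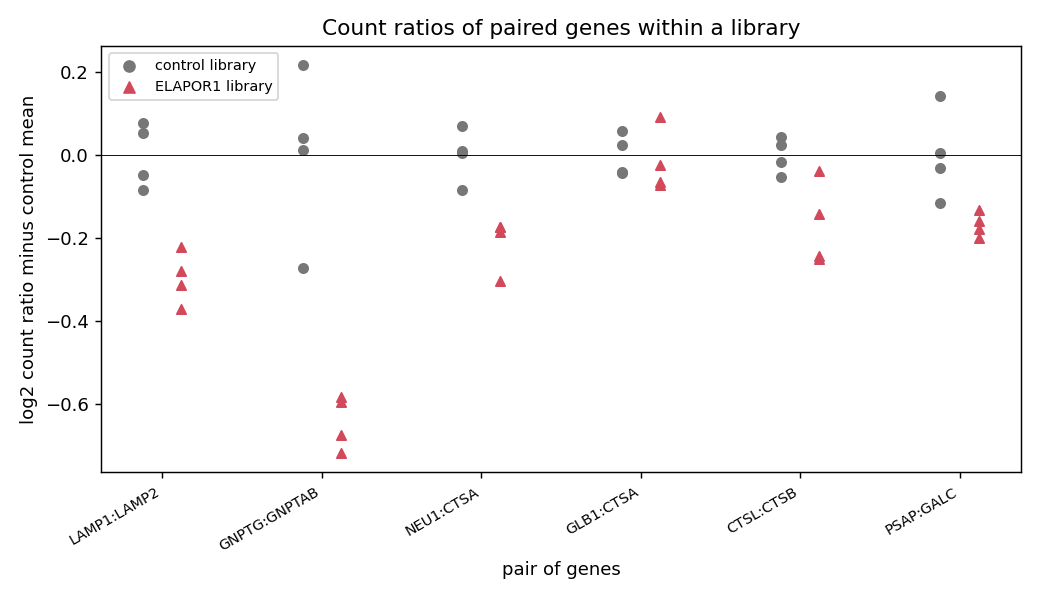
Log2 count ratio of 2 genes within each library, minus the control mean (y axis), for 6 pairs (x axis). Circles are control and triangles ELAPOR1 libraries; the groups are separate for LAMP1:LAMP2, GNPTG:GNPTAB, NEU1:CTSA and PSAP:GALC and overlap for GLB1:CTSA and CTSL:CTSB.

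Other genes of the pathway were listed by role, 63 in all, of which 62 were tested and 36 called, 25 lower and 11 higher. These were 58.1% called, 40.3% lower and 17.7% higher, against 44.7%, 22.1% and 22.6% of all tested genes. Their median log2 change was -0.13. Of 19 other hydrolases, 18 were tested (ACP5 had no counts), 7 were lower (38.9%) and 4 higher (22.2%). DNASE2, the acid DNase of lysosomes, was at 38.4, 47.3, 45.1 and 46.9 CPM in control and 30.3, 25.9, 30.5 and 28.6 CPM in ELAPOR1 libraries. It fell by 35.1% (log2 fold change -0.62, edgeR adjusted p = 2.6e-09), with no overlap. CTSV, a relative of CTSL, fell by 27.3% (edgeR adjusted p = 3.7e-04).

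Of 18 other membrane proteins of the lysosome, 8 were lower and 3 higher (44.4% and 16.7%, against 22.1% and 22.6% of all tested genes). CLCN7, the chloride-proton exchanger, fell by 29.6% (log2 fold change -0.51, edgeR adjusted p = 2.4e-09). On the opposite strand, CLCN7 shares 13.8% of its exon bases with AL031600.3, and DNASE2 shares 7.58% with AC020934.2. The effect of these overlaps was not tested. LAMP3, a LAMP relative known as an interferon-induced gene, rose by 0.50 in log2 units (edgeR adjusted p = 8.2e-04), with means of 6.08 ± 0.243 CPM in control and 8.62 ± 0.938 CPM with the transgene (SD over 4 libraries). The 6 activators and cathepsin inhibitors gave 5 falls (83.3%, against 22.1% of all tested genes). These were led by the cholesterol-binding NPC2 (log2 fold change -0.38, edgeR adjusted p = 3.6e-10) and the cathepsin inhibitor CSTB (-0.19, adjusted p = 9.8e-04).

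Of 11 genes for delivery and activation of hydrolases, 2 were lower, 2 higher and 7 not called. The shares, 18.2% each way, were near the 22.1% lower and 22.6% higher of all tested genes. GNPTG and GNPTAB encode subunits of the enzyme that starts the mannose 6-phosphate tag, and they moved in opposite directions. GNPTG averaged 18.4 ± 1.84 CPM in control and 14.3 ± 0.934 CPM with the transgene (log2 change -0.37, edgeR adjusted p = 5.6e-04). GNPTAB, named after its values were seen, averaged 39.7 ± 1.87 and 48.1 ± 1.56 CPM (log2 change 0.28, edgeR adjusted p = 5.5e-05; SD over 4 libraries). GNPTG shares 22.2% of its exon bases with UNKL on the opposite strand. CLN8, which helps newly made hydrolases leave the endoplasmic reticulum, fell by 17.5% (edgeR adjusted p = 4.9e-04). It shares 7.61% of its exon bases with KBTBD11-OT1 on the same strand, and the effect of that overlap was not tested.

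Among 9 genes of the TFEB family and its nutrient-sensing regulators, 3 were lower and 2 higher. These were 33.3% and 22.2%, against 22.1% and 22.6% of all tested genes. MITF, a relative of TFEB, averaged 16.4 ± 0.710 CPM in control and 13.3 ± 1.36 CPM with the transgene (log2 change -0.30, edgeR adjusted p = 4.7e-03; SD over 4 libraries). FNIP2, a partner of the folliculin tumour suppressor, rose by 0.49 (adjusted p = 5.2e-05). TFE3 rose by 0.14 (adjusted p = 3.8e-03) and TFEB, at 6.59 ± 0.979 CPM in control, was not called (-0.18, adjusted p = 0.318). FNIP1 and RRAGC were called lower (log2 change -0.12 and -0.22, edgeR adjusted p = 0.0359 and 0.0119). TFE3, TFEB, FNIP1 and RRAGC were named after their values were seen.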

How the data were processed

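RNA was extracted with TRIzol and sequenced on an Illumina NextSeq, per the labels' protocols. The authors deposited 1 table of expected counts per gene, not scaled between libraries, of which 15% of nonzero values were not whole. The submitters' processing notes name cutadapt, STAR, RSEM, DESeq2 and hg38, without versions; annotation and strand use were not given in the sources used here. Counts were rounded and tested in R 4.3.3 with edgeR 4.0.16 (filterByExpr, TMM, robust glmQLFit and glmQLFTest, two-sided, no covariate), adjusted by Benjamini-Hochberg over 13860 genes; a gene was called under 0.05. The standard error is the log2 fold change divided by the root of F. The 95% intervals are 1.96 times it each way, a normal quantile that makes them narrower than the F test implies. That of GALC, -0.26 to -0.0023, leaves out 0 while its unadjusted edgeR p was 0.0543. The share of counts and the ratios used unrounded counts. Positions and lengths are from GENCODE release 29 (GRCh38). Levels per length used the principal transcript, in place of the planned length of all exons, a choice made after the data were seen. The members, role groups and lists were chosen with earlier results of these data known. Library values are given for the 5 largest called falls and rises (only 3 rose), the 5 highest genes per length and those describing a role group; of other lists, the 2 largest called changes. Ratios were computed and adjusted over 8 pairs, of which 2 are not reported here. Protein sequences were not used here. Alternatives used DESeq2 1.42.0 and limma 3.58.1, and plots matplotlib 3.10.9. The procedure was tested on simulated data: over 13860 genes, 88.4% of 69 genes changed 1.5-fold, 100% of 68 changed 2-fold, 96.8% of 63 changed 3-fold and 0.0878% of 13660 unchanged genes were called. Apart from CTSF, every called member changed by less than 1.5-fold (at most 1.39-fold, CD63), so these rates do not cover changes of that size. The simulation also changed a far smaller part of the genes than the 44.7% called here. Totals of 13765509 to 18128757 counts leave genes near 1 CPM, such as CTSF, imprecise.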

Additional observations from a re-analysis of the deposited data

Results flagged for a closer look

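For TMEM192 and FUCA1, a single library stood apart from the rest of its group by more than the critical value of Dixon's test at 95%. TMEM192 had 72.1 CPM in control replicate 4, where the remaining controls had 81.1 to 82.6 CPM. FUCA1 had 14.02 CPM in ELAPOR1 replicate 4, where the remaining ELAPOR1 libraries had 15.2 to 15.4 CPM. Chance gives such a gap in about 5% of groups, or 3.9 of the 78 groups of 4 examined, and 2 were found.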

How the results depend on the processing

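Of the 24 calls among the members, 17 (16 lower, CTSC higher) remained under all 19 refits that tested against no change. Those were every scaling, filter, block, correction and left-out library, with DESeq2 and limma-voom, but not the test against a 1.5-fold change below. CTSL, CTSZ, FUCA1, CTSH, ARSB, CTSF and NAGLU were each lost under at least 1 of the 19. The same 17 were called at an adjusted p under 0.01, where 1 of them was higher. No called member changed sign. The number called higher was 1 with DESeq2, without a filter, with the replicate number as a block and at the stricter threshold, and 1 to 3 without single libraries. The median of the members was -0.17 under total count scaling and with 10 counts in every library, -0.18 with GC and length trends removed, and -0.20 to -0.16 without single libraries. Against a 1.5-fold change (glmTreat in edgeR) 0 members were called, 0 lower and 0 higher, with 1 at an unadjusted p under 0.05 (CTSF), where 215 genes in all were called, 91 of them lower; other tests against no change called 21 (DESeq2) and 23 (limma-voom) members. Without PSAP the shares of counts were 0.293% and 0.256%. With the replicate number as a block 22 members and 5926 genes were called against 24 and 6193. Same-numbered libraries did not deviate together (correlations from -0.0269 to 0.0247, with 1 of 8 libraries closest to its own number). The labels do not say what a number shares, and these correlations cannot show whether same-numbered libraries were handled together. The calls of CTSH and ARSB were lost under the block (edgeR adjusted p = 0.0524 and 0.0589). Adding same-strand overlapping genes to the members, the only refit chosen after seeing the data, changed no call among them. Overlaps on the opposite strand were not part of that refit. The ratios and the transcript lengths used for levels were also chosen after seeing the data. Library totals limit rare members: the interval of CTSF runs from -1.99 to -0.40.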
